A study of Mus musculus with 15 samples.

Results

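Cytosolic ribosomal protein genes were followed in dural macrophages of the mouse at 5 ages. The genes were chosen by symbol alone: Rpl or Rps followed by a number with an optional a, x, y or l suffix, plus Rplp0, Rplp1, Rplp2 and Rpsa, without the ribosomal protein kinases of the Rps6k type and without symbols that carry -ps. This rule gave 89 genes of the 53546 symbols counted, 53 of the large subunit and 36 of the small subunit. In the GENCODE M21 annotation 83 of the 89 were protein coding and 6 were pseudogenes, namely Rps4l, Rpl32l, Rps3a3, Rpl6l, Rps3a2 and Rps12l1. A partly different set of 83 passed the filter on low counts and was tested. The 6 that did not pass were Rpl32l, Rps3a3, Rpl6l, Rps3a2, Rps12l1 and Rpl10l, a testis paralog of Rpl10, and none of them had more than 14 reads in any library.

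Ribosomal proteins line the surface and the functional channels of the ribosomal RNA core, and each ribosome needs them in fixed proportion. Most of their messages begin with a terminal oligopyrimidine tract, a C followed by a run of pyrimidines, which ties their translation to growth signalling through mTOR. Many of these genes have processed pseudogenes, reverse-transcribed copies with nearly the same sequence, so that a short read often cannot be given to a single gene. Dural macrophages sit in the outer brain covering and carry CD206, the mannose receptor encoded by Mrc1.

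The CD206+ macrophages were sorted from C57BL/6J dura mater, and every group carried the genotype Cx3cr1GFP/wt, in which a GFP reporter sits at Cx3cr1. The groups were embryonic stage E14.5 and, after birth, day 3 (P3), day 10 (P10), day 21 (P21) and day 56 (P56). Each age had 3 bulk RNA-seq libraries, which makes 15. Per the labels, P56 was run in another sequencing project than the 4 younger ages, so age and project cannot be told apart there. The design text speaks of 3 to 5 individual mice per age. Library totals ran between 17550170 and 30614583 counts, and 11254 to 13654 genes per library had 10 or more. All 8 macrophage markers, Mrc1, Cd163, Lyve1 and Csf1r among them, were detected at every age, with a summed level of 8562 to 16000 CPM (counts scaled per library to a common total). P56 replicate 4 stood apart from the other P56 libraries: its macrophage marker sum was 8562 CPM, against 15970 and 16000 in replicates 5 and 6, and its share of mitochondrial-genome counts was 1.03%, against 0.493% and 0.427% in replicates 5 and 6. P56 replicate 5 differed in another list, with a mast cell marker sum of 289.9 CPM, against 10.2 and 15.7 in replicates 4 and 6.

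How much of a gene's sequence is its own can bear on its counted level. The start of the coding sequence is therefore shown for the genes on which the age comparisons turn. Rps27, the most shared of the tested genes, is shown too. Each line gives coding bases 1 to 90 of the GENCODE M21 principal transcript, with capitals where the base lies in a 50-base stretch that also occurs in another annotated gene.
Rpl8: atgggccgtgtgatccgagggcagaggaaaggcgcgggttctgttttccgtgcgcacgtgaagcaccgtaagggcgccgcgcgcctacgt
Rps15: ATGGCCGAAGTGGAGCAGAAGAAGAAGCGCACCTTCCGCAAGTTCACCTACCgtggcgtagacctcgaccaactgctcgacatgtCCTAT
Rpl4: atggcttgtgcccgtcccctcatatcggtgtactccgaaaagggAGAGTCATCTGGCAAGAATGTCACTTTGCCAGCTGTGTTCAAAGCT
Rps2: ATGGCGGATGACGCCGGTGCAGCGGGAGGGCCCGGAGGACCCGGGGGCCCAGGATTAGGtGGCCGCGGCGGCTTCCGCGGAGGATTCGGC
Rps27: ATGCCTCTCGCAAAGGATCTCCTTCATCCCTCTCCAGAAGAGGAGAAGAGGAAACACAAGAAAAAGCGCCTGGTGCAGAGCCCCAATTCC
Rpl8 (chromosome 15, 76904078 to 76906314, plus strand, GRCm38) had no shared base in this window. Rpl4 (chromosome 9, 64173375 to 64178666, plus strand) had 46 of 90 bases in capitals and Rps15 (chromosome 10, 80292453 to 80294114, plus strand) had 57. Rps2 (chromosome 17, 24718116 to 24721929, plus strand) had 89, and in Rps27 (chromosome 3, 90212522 to 90213651, minus strand) all 90 were shared. Over the whole transcript the shared percentage of 50-base stretches was 7.86% for Rpl8, 16.5% for Rpl4, 39.0% for Rps15, 79.0% for Rps2 and 98.6% for Rps27.

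The 89 genes together took a small share of the counts in each library. They held 0.613%, 0.621% and 0.592% of the total count in E14.5 libraries, 0.552%, 0.622% and 0.640% in P3 libraries, 0.648%, 0.713% and 0.535% in P10 libraries, 0.405%, 0.441% and 0.371% in P21 libraries, and 0.539%, 0.337% and 0.352% in P56 libraries. The means were 0.609 ± 0.0150%, 0.605 ± 0.0464%, 0.632 ± 0.0904%, 0.406 ± 0.0352% and 0.409 ± 0.113% from E14.5 to P56 (SD, n = 3 each). All 3 P21 libraries lay below all 9 libraries of E14.5, P3 and P10. At P56 replicates 5 and 6 lay below every P21 library, while replicate 4, the library with the low macrophage marker sum, lay above them all. In bulk RNA, fewer cells that carry these messages and less of them per cell cannot be told apart. How reads with several matching places were counted is not given. The shares of counts may therefore differ from the shares of the messages themselves.

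**Figure D1:**
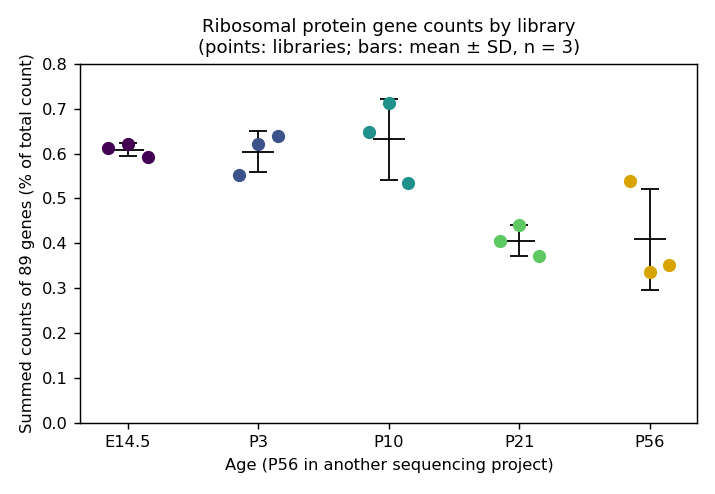
Summed counts of the 89 cytosolic ribosomal protein genes as a percentage of each library's total count (vertical axis), by age (horizontal axis). Points are libraries and bars are the mean ± SD of 3; the P21 points lie between 0.371% and 0.441%, below all points of E14.5, P3 and P10, and the high P56 point at 0.539% is replicate 4.

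The level per kilobase of transcript differed between the genes by orders of magnitude. Averaged over the 15 libraries, Rpl32 with 489 CPM per kb, Rps9 with 474, Rps14 with 386 and Rpl8 with 332 were among the 5 highest. The lowest of the tested genes were Rpl3l, a paralog of Rpl3 used in striated muscle, with 0.152 CPM per kb, then Rpl24 with 0.750, Rpl23a with 0.898, Rpl5 with 0.947 and Rpl9 with 1.86. Apart from Rpl3l these are core subunits, and between 81.7% and 93.8% of their 50-base stretches also occur in other genes. The level went down with the shared part: the median was 139 CPM per kb for the 13 tested genes with under 25% shared, 73.6 for the 18 with 25 to 50%, 28.2 for the 25 with 50 to 75%, and 5.37 for the 27 with over 75%. Spearman's rho across the 83 genes was -0.53, given as a description. All points share the same libraries.

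Rps27, the most shared of the tested genes, was counted at low levels. It had 29, 18 and 38 reads in E14.5 libraries, 31, 3 and 34 in P3 libraries, 63, 39 and 11 in P10 libraries, 22, 6 and 44 in P21 libraries, and 4, 19 and 35 in P56 libraries, while only 4 of its 296 stretches were its own. Rpl35, chosen after its values were seen, had 217 to 666 reads per library with 95.1% shared, so a high shared part did not always go with so few reads. The paralog of Rps27, Rps27l, known as a target of the p53 response, shares 22.4% and stood at 325 CPM per kb, against 3.23 for Rps27. In the whole set 56 of 89 genes had over 50% of their stretches shared, and 3 had none shared, Rpl39l and Rpl3l among them. Pseudogene symbols of the -ps type existed for 64 of the 89 genes, 321 symbols in all. Outside the set, 260 counted symbols hold at least 25% of a member's stretches. They took between 0.0208% and 0.0254% of the total count on average at each age. The highest of them by reads were BC004004, with a mean of 109 CPM, and Uimc1, with 29.3. These are counts over whole genes, so reads outside the shared stretches are included. Genes that hold a smaller part of a member's stretches were not summed. How the counting treated reads with several matching places is not given in the sources used here. The levels of the highly shared genes are therefore uncertain, and comparisons between ages use each gene against itself.

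**Figure D2:**
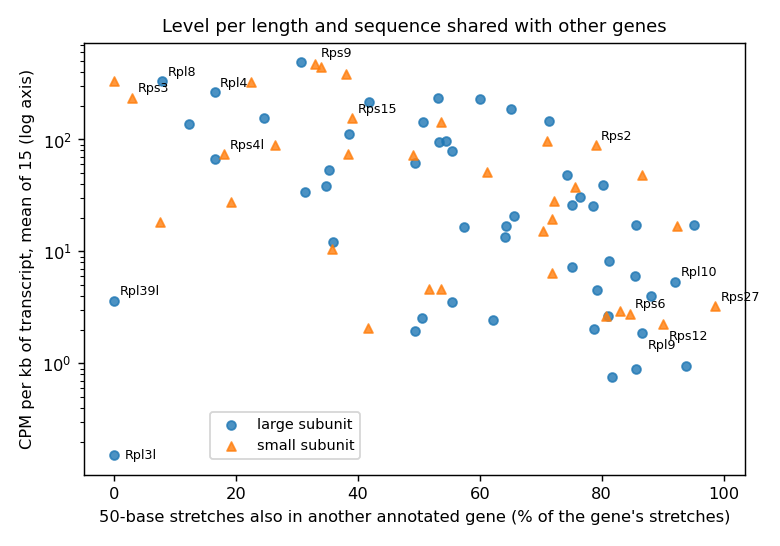
Mean level per kilobase of transcript over 15 libraries (vertical log axis, CPM per kb) against the percentage of a gene's 50-base stretches that also occur in another annotated gene (horizontal axis), for the 83 tested genes; circles are large-subunit and triangles small-subunit genes. Levels are highest at the left, with a median of 139 CPM per kb under 25% shared, and lowest at the right, with a median of 5.37 over 75%; Rpl3l and Rpl39l are low with no shared stretch.

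The clearest movement of the set was between P10 and P21. At P21, 80 of the 83 tested genes had a lower estimate than at P10, with a median log2 change of -0.56, where the median of all 14683 tested genes was -0.01. Rps15, a protein of the small-subunit head, was the gene that passed the threshold of an adjusted p under 0.05. Of all tested genes 1.14% passed in this comparison, 0.184% downward and 0.960% upward. DESeq2 called 8 of the 83, all downward, where it called 1.90% of all genes it tested downward. With library-total scaling edgeR called 4, all downward, against 0.511% of all genes. The 3 genes with a positive estimate, Rpl10 at 0.35 and Rpl15 at 0.11 among them, all had an adjusted p of 0.879 or more. Changes are edgeR estimates of the later age over the earlier one, tested with its two-sided quasi-likelihood test and the Benjamini-Hochberg adjustment over all tested genes.

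Without the adjustment, many more of the genes lay on the lower side. An unadjusted p under 0.05 was reached by 36 of 83 genes, all downward, against 6.70% of all tested genes downward and 7.91% upward. In 43 of 83 genes all P21 libraries lay below all P10 libraries, and in 0 above, where 8.92% of all tested genes separated downward and 8.80% upward. The middle 50% of the ribosomal protein genes ran between -0.78 and -0.44, while that of all genes ran between -0.48 and 0.47. Both subunits took part, with a median of -0.54 over 50 large-subunit genes and -0.62 over 33 small-subunit genes. The median did not follow the shared part: it was -0.56 with under 25% shared, -0.57 with 25 to 50%, -0.52 with 50 to 75% and -0.62 with over 75%. Without P10 replicate 2, the library with the highest share, the median was -0.39, and without P10 replicate 3, which has the lowest share at P10, it was -0.66.

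**Figure D3:**
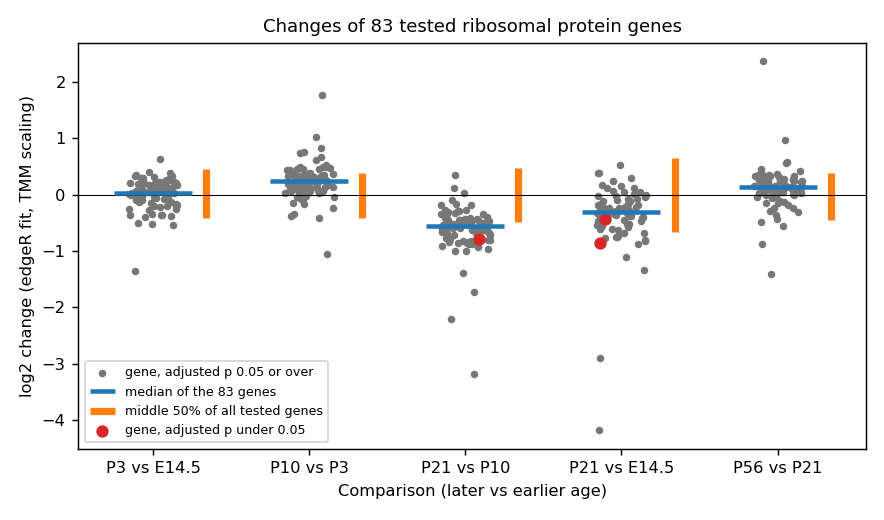
Log2 change of each of the 83 tested genes (points) in 5 comparisons of a later with an earlier age; blue lines are the medians of the 83 genes, orange bars the middle 50% of all tested genes and red points the genes with an adjusted p under 0.05. The cloud for P21 vs P10 sits below 0 with its median at -0.56, and 1 point there and 2 points in P21 vs E14.5 are red.

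Other properties of the libraries moved between the same ages. The summed level of the osteoclast markers was 186 to 245 CPM at P21, against 813 to 1694 at P10, that of the mast cell markers 4.05 to 10.95 CPM at P21, against 173 to 435 at P10, and that of the proliferation genes 185 to 361 CPM at P21, against 404 to 450 at P10. The macrophage marker sum was 11670 to 14810 CPM at P21, against 8756 to 11040 at P10. In none of these 4 lists did the ranges of both ages overlap. All 5 osteoclast markers were detected at P21 and all but Calcr at P10, and of the 7 mast cell markers Fcer1a was at 0 at P21. The fibroblast sum overlapped, with 988 to 1839 CPM at P21 and 655 to 2720 at P10, and so did the share of mitochondrial-genome counts, with 0.415% to 0.696% at P21 and 0.658% to 0.782% at P10. The part of these lists in the ribosomal protein result was not tested.

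Transcript length also moved with the comparison. Among protein-coding genes outside the set with a transcript of 750 bases or under, 441 in number, the median log2 change in P21 vs P10 was -0.28, while it was -0.62 for the 42 ribosomal protein genes of that length. For P21 vs E14.5 the short genes outside the set had a median of 0.37 and the ribosomal protein genes of that length -0.24, on opposite sides of 0. Neither difference was tested.

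Rps15 had 76.0, 77.04 and 75.6 CPM in E14.5 libraries, 76.97, 85.0 and 87.6 in P3 libraries, 106, 125 and 82.4 in P10 libraries, 68.1, 60.2 and 52.1 in P21 libraries and 74.6, 57.2 and 59.8 in P56 libraries. All P21 values lie below all P10 values, and P10 replicate 2 is the highest of the 15. The mean was 60.2 ± 7.99 CPM at P21 and 104 ± 21.1 at P10 (SD, n = 3 each), a log2 change of -0.79 ± 0.17 (SE) with an edgeR adjusted p of 0.0439. The call was kept without P10 replicate 3 and lost without each of the other 5 libraries of both ages, namely P10 replicates 1 and 2 and P21 replicates 1, 2 and 3, with an edgeR adjusted p between 0.0606 and 0.200.

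Rps26, which touches the message near its exit from the small subunit, came next by p. It had 31.4, 39.9 and 37.7 CPM at P21, against 63.8, 75.1 and 54.0 at P10, and the groups did not overlap. Its log2 change was -0.82 ± 0.21 with an edgeR adjusted p of 0.0768, which misses the threshold. Rpl14, a large-subunit surface protein, had 48.7, 53.0 and 48.2 CPM at P21, against 86.4, 85.1 and 67.6 at P10, again without overlap. The log2 change of Rpl14 was -0.67 ± 0.17 with an edgeR adjusted p of 0.0785.

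Across the 4 ages of the first sequencing project, a test of any difference called 3 of 83 genes, Rpl8 and Rps15 among them, where 12.3% of all 14287 genes in that fit were called. DESeq2 called 12 of the 83, against 24% of all genes it tested, and edgeR with library-total scaling called 20, against 15.7%. Without single libraries the edgeR count ran between 1 and 5. Rpl8, a large-subunit protein next to the peptidyl transferase centre, had 268, 269 and 275 CPM in E14.5 libraries, 312, 308 and 352 in P3 libraries, 367, 349 and 295 in P10 libraries, 246, 235 and 207 in P21 libraries and 315, 212 and 228 in P56 libraries. Its P21 values lie below all values of the 3 younger ages, and the P3 and P10 values lie above all E14.5 values. The edgeR adjusted p for any difference was 0.0177, and it remained under 0.05 in all 22 alternative settings run, with values between 0.000184 and 0.0456. In the single comparison P21 vs P10 its log2 change was -0.56 ± 0.15 with an edgeR adjusted p of 0.0938. Rps15, described above, had an edgeR adjusted p of 0.0375 for any difference, kept under 0.05 in 10 of 22 alternative settings, and among left-out libraries only without P10 replicate 3 or P21 replicate 1.

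**Figure D4:**
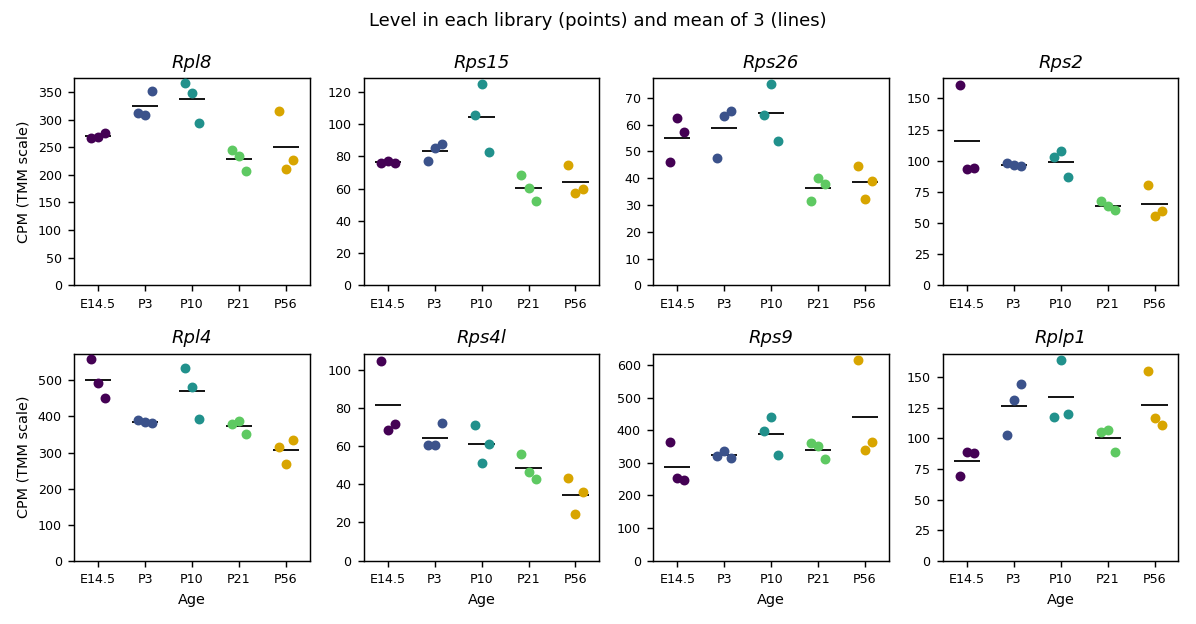
Level in each library (points, CPM on the TMM scale) and mean of 3 (lines) at 5 ages for Rpl8, Rps15, Rps26, Rps2, Rpl4, Rps4l, Rps9 and Rplp1, each panel with its own vertical axis starting at 0. Rpl8, Rps15, Rps26 and Rps2 have their P21 points below all points of the younger ages, while Rps9 and Rplp1 do not, and P56 replicate 4 is the high P56 point in several panels.

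Over the longer interval from E14.5 to P21, 2 of 83 genes were called, both lower at P21, while 12.2% of all tested genes were called, 4.37% lower and 7.81% higher. DESeq2 called 7 genes, all lower, against 8.13% of all genes it tested, and edgeR with library-total scaling called 18, all lower, against 10.2%. Without single libraries of both ages the edgeR count was 0 or 1. Among the 83 genes 70 had a negative estimate, and the median log2 change was -0.32, against -0.01 over all tested genes. In 31 genes all P21 libraries lay below all E14.5 libraries and in 1, Rplp1, above, where 17.4% of all genes separated downward and 16.1% upward. With library-total scaling 50 genes separated downward, on a scale that also shifted the median of all tested genes downward. The share of all genes that separated on that scale is not reported here. An unadjusted p under 0.05 was reached downward by 9 and upward by 0, against backgrounds of 11.6% and 14.3%. This comparison shares its P21 libraries with P21 vs P10. The proliferation gene sum was 185 to 361 CPM at P21, against 1189 to 1406 at E14.5, the fibroblast sum 988 to 1839 CPM at P21, against 64.2 to 707 at E14.5, and the erythroid sum 7.04 to 26.8 CPM at P21, against 139 to 382 at E14.5. The endothelial sum was 1.67 to 2.73 CPM at P21, against 5.80 to 17.7 at E14.5, and the glia and neuron sum 28.9 to 46.9 CPM at P21, against 15.2 to 22.8 at E14.5. The part of these lists was not tested.

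Rps2, a small-subunit protein at the messenger entry, had 161, 93.1 and 94.4 CPM in E14.5 libraries, 97.9, 96.9 and 95.9 in P3 libraries, 103, 108 and 86.9 in P10 libraries, 67.5, 63.3 and 60.2 in P21 libraries and 80.5, 55.8 and 59.7 in P56 libraries. The 3 P21 values lie below all values of E14.5, P3 and P10, and E14.5 replicate 1 is far above its 2 partners. The log2 change in P21 vs E14.5 was -0.87 ± 0.21 with an edgeR adjusted p of 0.0144. Without E14.5 replicate 1 the change was -0.56 and the edgeR adjusted p 0.0668. The call held in 16 of 18 alternative settings. Of its stretches 79.0% are shared with 71 other annotated genes, so its level is uncertain.

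Rpl4, which lines the peptide exit tunnel, had 559.8, 493 and 451 CPM in E14.5 libraries, 389, 385 and 381 in P3 libraries, 535, 482 and 393 in P10 libraries, 380.5, 387 and 352 in P21 libraries and 316, 268 and 336 in P56 libraries. The P3, P21 and P56 libraries all lie below the E14.5 libraries, while P10 overlaps E14.5 and lies above P3 without overlap. The log2 change in P21 vs E14.5 was -0.43 ± 0.13 with an edgeR adjusted p of 0.0476, close to the threshold, and 6 of 18 alternative settings kept the call. Without E14.5 replicate 1 it was -0.34, with an edgeR adjusted p of 0.171, and the call was also lost without each other library of both ages.

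Rps4l missed the threshold narrowly over the same interval, with a log2 change of -0.75 ± 0.23 and an edgeR adjusted p of 0.0506. On the other side of 0 stood 13 genes, with Rpl11 at 0.39, Rplp1 at 0.29 and Rps9 at 0.25 among them, none with an edgeR adjusted p under 0.366. Rpl11 was chosen for mention after its values were seen.

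Up to P10 no ribosomal protein gene passed the edgeR test. In P3 vs E14.5 the call count was 0 of 83, with 2.06% of all tested genes called, 1.67% upward and 0.388% downward. An unadjusted p under 0.05 was reached by 1 gene upward and 1 downward, against 8.11% and 4.73% of all genes. DESeq2 called 1 gene there, upward, against 6.12% of all genes it tested. The median log2 change was 0.04, with 50 positive estimates, and it was -0.0029 without P3 replicate 2, so its sign is not settled. With library-total scaling the median was -0.0092, but the shift of all tested genes on that scale is not reported here for this comparison. Libraries separated upward in 7 genes and downward in 6, against 13.4% and 13.0% of all genes, which is close to or under the background. The gene with the smallest p was Rplp1, a stalk protein that helps recruit translation factors, with 102, 132 and 145 CPM at P3, against 69.0, 88.8 and 87.7 at E14.5. The groups did not overlap, and its log2 change was 0.62 ± 0.19 with an edgeR adjusted p of 0.134. Rpl4 and Rpl41, which encodes a very short basic peptide, followed with -0.38 and 0.35, at edgeR adjusted p-values of 0.188 and 0.504.

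In P10 vs P3 the call count was also 0 of 83, with 0.402% of all tested genes called, 0.341% upward and 0.0613% downward, and DESeq2 called 0, against 2.45% of all genes it tested. An unadjusted p under 0.05 was reached by 1 gene upward and 0 downward, against 5.17% and 4.84% of all genes. Of the 83 estimates 71 were positive, with a median of 0.24, against 0.01 over all tested genes. Protein-coding genes outside the set with a transcript of 750 bases or under had a median of 0.28, against 0.24 for the ribosomal protein genes of that length, a difference that was not tested. The mast cell marker sum was 173 to 435 CPM at P10, against 634 to 1759 at P3, the proliferation gene sum 404 to 450 CPM at P10, against 678 to 719 at P3, and the B cell sum 110.5 to 128 CPM at P10, against 85.4 to 107 at P3; the part of these lists was not tested. Libraries of both ages separated in 6 genes upward and 1 downward, against 9.80% and 9.35% of all genes. Rpl4 had a log2 change of 0.29 ± 0.13, Rps15 of 0.33 ± 0.17 and Rps21 of 0.48 ± 0.26, with edgeR adjusted p-values of 0.484, 0.572 and 0.585. P10 is thus the high side of both neighbouring comparisons, and it is also the age whose libraries spread most among the younger ages, between 0.535% and 0.713% of the total count.

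In P56 vs P21 no ribosomal protein gene was called by edgeR or DESeq2, with 0.272% of all tested genes called by edgeR, 0.102% upward and 0.170% downward, and 3.91% of those DESeq2 tested called by it. An unadjusted p under 0.05 was reached by 1 gene upward and 1 downward, against 5.38% and 6.30% of all genes. Libraries separated upward in 3 genes and downward in 2, against 6.76% and 6.22%. The median log2 change was 0.13, with 61 positive estimates, and it was -0.08 without P56 replicate 4. With library-total scaling, which also shifted the median of all tested genes downward, it was -0.0008. The fibroblast marker sum was 83.3 to 137 CPM at P56, against 988 to 1839 at P21, and the proliferation gene sum 100.5 to 141 CPM at P56, against 185 to 361 at P21; the part of these lists was not tested. Rpl9, the gene with the smallest p, had 1.78, 1.54 and 1.33 CPM at P56, against 0.489, 0.157 and 0.241 at P21, which is 31, 28 and 24 reads at P56, against 10, 3 and 5 at P21. Its log2 change was 2.37 ± 0.99 with an edgeR adjusted p of 0.377, and 86.7% of its stretches are shared. Rpl4 and Rps4l had lower estimates at P56, -0.28 and -0.49, with edgeR adjusted p-values of 0.420 and 0.429.

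Among the stalk proteins, Rplp0, the base on which the others sit, had 258, 298 and 274 CPM in E14.5 libraries, 322, 317 and 302 in P3 libraries, 299.9, 349.9 and 271 in P10 libraries, 279.7, 277 and 250.2 in P21 libraries and 347, 259 and 288 in P56 libraries, and its P21 range overlaps those of E14.5, P10 and P56 and lies below that of P3. The log2 change in P21 vs P10 was -0.19 for Rplp0, -0.42 for Rplp1 and -0.52 for Rplp2, with edgeR adjusted p-values of 0.563, 0.331 and 0.215. Rpsa, a small-subunit protein also described as a laminin receptor, had 6.06, 4.64 and 4.91 CPM at P21, against 6.88, 9.25 and 6.61 at P10, without overlap. Rps6, the substrate of the ribosomal protein S6 kinases, was counted at only 1.29 to 3.66 CPM, and its P21 and P10 libraries overlapped. Rpl10, which joins the large subunit late in its assembly, had 5.72, 1.98 and 5.59 CPM at P21, against 2.61, 3.28 and 4.53 at P10 and did not separate either. Both are highly shared, 84.6% of stretches for Rps6 and 92.1% for Rpl10.

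Of the other genes with a known special role, Rpl3, at the peptidyl transferase centre, had 19.9, 20.6 and 18.6 CPM at P21, against 29.4, 31.0 and 25.2 at P10, and Rpl13a, known for a part in silencing inflammatory messages, had 11.8, 14.9 and 12.2 CPM at P21, against 22.6, 28.7 and 17.2 at P10. Rps27a, made as a fusion with ubiquitin, had 3.03, 2.56 and 3.32 CPM at P21, against 5.19, 6.69 and 4.83 at P10. In each of these 3 genes the ages did not overlap, with P21 lower. Rps29 had 3.52, 4.23 and 3.37 CPM at P21, against 5.99, 4.94 and 4.22 at P10, and its ranges overlapped. Rpl41 had 96.2, 104 and 76.7 CPM at P21, against 119, 160 and 107 at P10, without overlap. The edgeR adjusted p in P21 vs P10 was 0.279 for Rpl3, 0.208 for Rpl13a, 0.539 for Rps27a, 0.818 for Rps29 and 0.286 for Rpl41.

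Rps9, a protein at the messenger entry, did not follow the set closely. It had 363, 252 and 247 CPM in E14.5 libraries, 319.5, 335 and 315 in P3 libraries, 397, 442 and 324 in P10 libraries, 359.5, 350.2 and 312 in P21 libraries and 616, 338 and 363 in P56 libraries. The P21 and P10 ranges overlap, and P56 replicate 4 is the highest library. Over the 12 libraries of the 4 younger ages, the Pearson correlation of each gene's log2 level with the mean of the other ribosomal protein genes had a median of 0.692 and was positive for 80 of 83 genes. It was 0.326 for Rps9, against 0.957 for Rps15 and 0.961 for Rpl13a. The negative ones were Rpl10 at -0.216, Rpl15 at -0.166 and Rpl10a at -0.0125. These correlations describe shared movement of genes that share libraries and scaling.

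Paralogs of limited or variable use ranged widely in level. Rpl22, whose loss in the mouse mainly affects T cells, and its paralog Rpl22l1 stood at 156 and 20.8 CPM per kb, and the log2 ratio of Rpl22l1 over Rpl22 was -2.47 ± 0.266 in E14.5 cells, -2.82 ± 0.240 in P3 cells, -2.76 ± 0.116 in P10 cells, -2.62 ± 0.341 in P21 cells and -2.71 ± 0.441 in P56 cells (SD, n = 3 each). These ages differ by about the spread between libraries. Rps27l had 144, 137 and 112 CPM at P21, against 168, 293 and 152 at P10, lower without overlap, with an edgeR adjusted p of 0.240. Rpl7l1, which resembles the large-subunit gene Rpl7, had 186, 154 and 163 CPM at P21, against 253, 200.2 and 164 at P10, which overlap. Rpl39l, a testis paralog of Rpl39, reached at most 5.07 CPM and was at 0 in P21 replicate 2 and P56 replicate 6. Rpl3l reached at most 0.955 CPM, with 0 to 22 reads per library. Rpl10l had 11 reads in P56 replicate 4 and 6 or fewer in every other library.

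Rps4l, annotated as a transcribed processed pseudogene of the small-subunit family, was counted well, and 18% of its stretches are shared. It had 104, 68.5 and 71.6 CPM in E14.5 libraries, 60.4, 60.5 and 71.9 in P3 libraries, 70.9, 51.4 and 61.1 in P10 libraries, 56.1, 46.4 and 43.0 in P21 libraries and 43.1, 24.6 and 35.8 in P56 libraries. The P56 values lie below the P21 values, apart from replicate 4, which is just above P21 replicate 3. Rps4x, the X-linked gene of the same family, had 29.8, 26.0 and 28.1 CPM in E14.5 libraries, 28.2, 24.9 and 32.7 in P3 libraries, 27.4, 35.0 and 27.2 in P10 libraries, 21.7, 26.6 and 19.1 in P21 libraries and 34.8, 25.4 and 24.9 in P56 libraries. The log2 ratio of Rps4l over Rps4x was 1.52 ± 0.255 in E14.5 cells, 1.17 ± 0.0967 in P3 cells, 1.03 ± 0.426 in P10 cells, 1.11 ± 0.288 in P21 cells and 0.26 ± 0.291 in P56 cells (SD, n = 3 each). The P56 ratio is lower than those of the younger ages by more than the spread between libraries, and it comes from the other sequencing project. Rps4x has 72.2% of its stretches shared, so the absolute ratio is uncertain.

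The promoter windows show whether the annotated start carries a tract of the oligopyrimidine type. Each line runs from 40 bases before to 20 bases from the annotated RefSeq start onward on the gene's strand (GRCm38.p6), with the tract in capitals, a C followed by 5 or more C or T with its first base within 10 bases of the start. Genes with the smallest p-values, Rps9, which did not follow the set closely, and Rps6 are shown.
Rps15: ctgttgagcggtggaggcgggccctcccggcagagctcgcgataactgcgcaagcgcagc
Rps26: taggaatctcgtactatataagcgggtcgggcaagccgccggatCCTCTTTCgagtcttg
Rpl14: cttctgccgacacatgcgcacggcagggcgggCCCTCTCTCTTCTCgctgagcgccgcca
Rps2: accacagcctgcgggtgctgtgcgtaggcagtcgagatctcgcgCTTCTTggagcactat
Rpl4: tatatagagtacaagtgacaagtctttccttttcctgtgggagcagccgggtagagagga
Rps9: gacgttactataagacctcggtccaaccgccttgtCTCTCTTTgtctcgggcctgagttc
Rps6: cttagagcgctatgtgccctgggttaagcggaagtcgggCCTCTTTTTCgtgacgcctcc
Rps26 (chr10:128626487-128626546, minus strand), Rpl14 (chr9:120571477-120571536, plus strand), Rps2 (chr17:24720023-24720082, plus strand), Rps9 (chr7:3704001-3704060, plus strand) and Rps6 (chr4:86857348-86857407, minus strand) hold such a tract. In Rps15 (chr10:80292391-80292450, plus strand) and Rpl4 (chr9:64173347-64173406, plus strand) no such tract begins within 10 bases of the start. The search covered the gene strand only, and runs farther from the start were not counted. Of 64 ribosomal protein genes with a promoter entry 35 held a tract, which is 54.7%, against 21.9% of all 27025 genes with an entry. A match or its absence in this window is a description and was not set against the changes with age.

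Genes that work with the ribosome were read from lists beside the set. The other cytosolic ribosomal parts, Fau, Rack1, Rpl36al and Rps27rt among them, had 0 of 5 calls in each comparison and a median log2 change of -0.56 in P21 vs P10. Rack1, a scaffold on the small subunit, averaged 241 ± 12.3 CPM at P21 and 378 ± 51.9 at P10 (SD, n = 3 each), with a log2 change of -0.65 ± 0.19 and an edgeR adjusted p of 0.129. Of the 77 tested genes of the mitochondrial ribosome, 0 were called in P21 vs P10 and their median was -0.48. In P21 vs E14.5 their median was -0.16, and Mrpl44 alone was called, downward, at -1.33 ± 0.39 with an edgeR adjusted p of 0.0412. For host genes of small nucleolar RNAs the median in P21 vs P10 was -0.77 over 14 genes, with 0 called.

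Genes that build ribosomes were called in P3 vs E14.5. Of 49 tested ribosome biogenesis genes 5 fell in P3 vs E14.5 and 0 rose, where 0.388% of all tested genes fell, while 0 of the 83 ribosomal protein genes passed; the difference between the lists was not tested. The proliferation gene sum was 678 to 719 CPM at P3, against 1189 to 1406 at E14.5, the mast cell marker sum 634 to 1759 CPM at P3, against 2.11 to 126 at E14.5, and the osteoclast sum 822 to 1310 CPM at P3, against 117 to 529 at E14.5. The part of these lists in the count was not tested. Nop58, a core protein of box C/D small nucleolar particles, averaged 59.9 ± 12.7 CPM at P3 and 139.5 ± 8.89 at E14.5 (SD, n = 3 each), with a log2 change of -1.22 ± 0.24 and an edgeR adjusted p of 0.0153. Nolc1, a nucleolar chaperone, changed by -1.15 ± 0.23 with an edgeR adjusted p of 0.0159, and Ncl, nucleolin, by -0.93 ± 0.22 with an edgeR adjusted p of 0.0416. The list's median log2 change in P3 vs E14.5 was -0.56. In P21 vs P10 the biogenesis median was -0.36 with 0 calls, and in P21 vs E14.5 it was -0.71, with 16 lower and 1 higher, where 4.37% of all tested genes were lower and 7.81% higher. The lower ones include Nop58 and Npm1, nucleophosmin, at -1.53 and -1.12, and the higher one is Sbds, which frees the large subunit for joining, at 1.29. Of 20 tested RNA polymerase I genes 0 were called in any comparison.

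**Figure D5:**
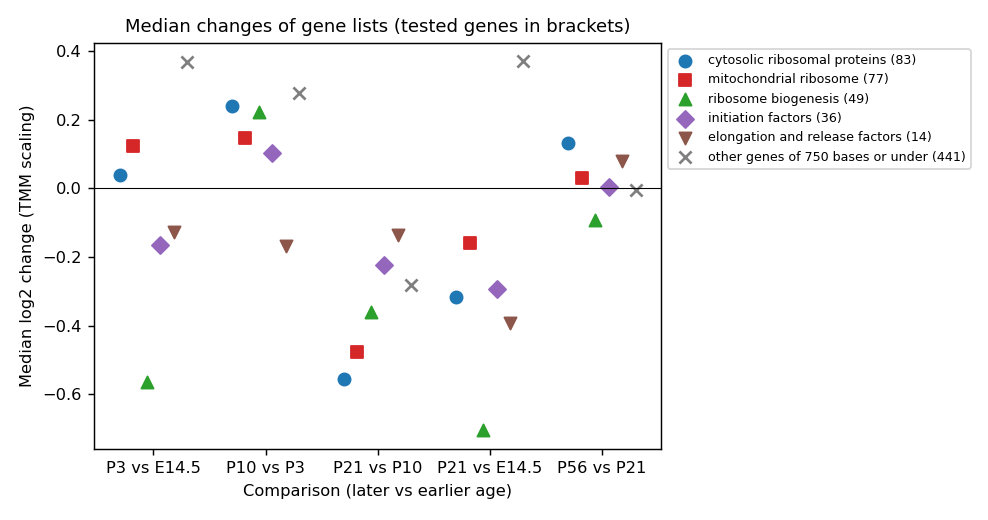
Median log2 change (vertical axis) of the tested genes of each list in 5 comparisons of a later with an earlier age; the number of tested genes stands in brackets in the legend, and crosses are protein-coding genes outside the set with transcripts of 750 bases or under. In P3 vs E14.5 ribosome biogenesis lies at -0.56 and the ribosomal protein genes at 0.04 (-0.0092 with library-total scaling), and in P21 vs P10 the ribosomal protein genes lie at -0.56.

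Translation factors changed in small numbers. Of 36 tested initiation factors 1 fell in P3 vs E14.5, Eif3b, at -0.84 ± 0.18 with an edgeR adjusted p of 0.0257. In P3 vs E14.5, 0.388% of all tested genes fell and 1.67% rose. In P21 vs E14.5, 4 fell and 1 rose: Eif3l fell by 0.89 on the log2 scale, and Eif1, which guards start codon choice, was higher at 1.06. Among 14 elongation and release factors Eef2, which moves the ribosome along the message, was called in P21 vs E14.5, at -0.35 ± 0.11 with an edgeR adjusted p of 0.0476. Of 20 oligopyrimidine-type genes outside the ribosome 3 fell in P21 vs E14.5, Npm1, Pabpc1 and Eef2, and 0 were called in P21 vs P10, where their median was -0.36. Npm1 is also counted in the biogenesis list, and Eef2 in that of elongation and release factors. A mixed list on oligopyrimidine messages and S6 signalling had 24 tested genes. Of these, Maf1, a repressor of RNA polymerase III, rose in P3 vs E14.5 at 0.53 and in P21 vs E14.5 at 0.62. Sesn1, a sestrin that restrains mTOR, and Mlst8, an mTOR partner, fell in P21 vs E14.5. Of 12 genes for stalled and colliding ribosomes, G3bp1 and Usp10 fell and Edf1 rose in P21 vs E14.5. In that comparison 12.2% of all tested genes were called, 4.37% lower and 7.81% higher.

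Some genes outside the ribosome had levels most like the mean of the ribosomal protein genes over the 12 libraries of the younger ages. Among 6508 genes averaging at least 20 CPM, they were Snrnp25 with a Pearson r of 0.932, Naca with 0.931, Psmb7 with 0.928, Fabp5 with 0.927 and Haus7 with 0.923. Fabp5, a fatty acid binding protein, averaged 22.2 ± 7.78 CPM at P21 and 76.7 ± 25.9 at P10 (SD, n = 3 each) and was called in P21 vs P10 with a log2 change of -1.79 ± 0.31 and an edgeR adjusted p of 0.0177. The other 4 were not called there, at -0.93 for Snrnp25, -0.53 for Naca, -0.66 for Psmb7 and -0.96 for Haus7.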

How the data were processed

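The authors deposited raw counts per gene symbol for the 15 libraries. Per the labels' protocols, sorted cells gave 500 pg of total RNA for SMARTer v4 cDNA and Nextera XT libraries. Per the submitters' processing notes, bcl2fastq 2.18, STAR 2.7.8a and featureCounts 2.0.2 were used; genome build, annotation, strand setting and the rule for reads with several matches are not given in the sources used here. The counts went through edgeR 4.0.16 under R 4.3.3 (TMM scaling, genes filtered by age, robust quasi-likelihood fit on age, 14683 genes), and the test of any difference used the 12 libraries of the first project (14287 genes). Levels of genes are CPM on the TMM scale, while the summed levels of marker lists are CPM of the library total. The TMM factors ran between 0.8071 and 1.158 over the libraries, so the scales differ. DESeq2 1.42.0, limma 3.58.1 voom, other scalings, filters and left-out libraries were alternatives. The edgeR step was tested on simulated data. GENCODE M21 (50067 of 53546 symbols matched) gave transcripts, lengths and exact 50-base matches between genes, and RefSeq GRCm38.p6 gave promoters for 64 of 89 genes. In each comparison named were the called genes or, with fewer than 3, the 3 with the smallest p, besides the 5 highest and 5 lowest per kb, genes of known special role, paralogs and up to 3 called genes per list; others were chosen after their values were seen, among them Rpl15, Rpl10a and Rps9 as an exception to the set. Some genes of the set and the lists enter the counts and medians but are not reported here by name. The members and lists were chosen with earlier results of these data known. Same-numbered libraries of different ages did not deviate together over all tested genes (correlations -0.0273 to 0.0618), so no pairing by number was used. A link that moves few genes would not show in these correlations. Among the libraries of an age no 2 agreed within sampling noise.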

Additional observations from a re-analysis of the deposited data

How the results depend on the processing

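Scaling by library totals alone shifted the median log2 change of all tested genes to -0.18 in P21 vs P10, -0.32 in P21 vs E14.5 and -0.13 in P56 vs P21, and changes on that scale are read against these shifts. On it the median of the ribosomal protein genes was -0.0092 in P3 vs E14.5 and -0.0008 in P56 vs P21, both reversed in sign, and -0.62 in P21 vs E14.5. Against the -0.13 of all tested genes, the P56 vs P21 median still lay on the upper side. The shift of all tested genes in P3 vs E14.5 is not reported here, so the median of that comparison cannot be read against it. The called genes numbered 4 in P21 vs P10, 18 in P21 vs E14.5 and 20 for any difference among the 4 younger ages. All P21 libraries lay below all E14.5 libraries in 50 genes, in place of 31. For P21 vs P10 the count of genes with all P21 libraries lower was 60, in place of 43. The share of all tested genes that separated on this scale is not reported here. Library-total scaling for the 2 counts of separated genes was an alternative chosen after seeing the data. Leaving out libraries there was another, which gave 43 to 63 in P21 vs P10 and 35 to 44 in P21 vs E14.5. Leaving out a library can only keep or raise such a count, so these ranges do not test it. RLE scaling left 1 call in P21 vs E14.5. Upper-quartile scaling left 0 calls in P21 vs P10, 1 in P21 vs E14.5 and 5 for any difference. No filter gave 0 calls in P21 vs P10 and 5 for any difference, and a filter of 5 CPM gave 7 for any difference. With only the 2 ages in the fit, 0 and 1 genes were called in P21 vs P10 and P21 vs E14.5. With the 12 libraries of the first project and no block these counts were 3 and 5. DESeq2 called 1 gene in P3 vs E14.5, 8 in P21 vs P10, 7 in P21 vs E14.5 and 12 for any difference, where it called 821, 748, 2756 and 3190 of all genes. limma voom called 5 genes in P21 vs E14.5. Except for DESeq2 and library-total scaling, the share of all genes called in each alternative setting is not reported, here or in what follows. The counts from those settings can therefore not be set against a background. The cause of the moves between settings was not tested.

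The replicate numbers were not taken to pair the samples. A fit with the replicate number as a block over the 12 libraries gave 4 calls in P21 vs P10, 6 in P21 vs E14.5 and 6 for any difference. The share of all genes called in that fit is not reported either.

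Without single libraries the calls ranged between 0 and 1 in P21 vs P10, between 0 and 1 in P21 vs E14.5 and between 1 and 5 for any difference. The median in P3 vs E14.5 ran between -0.0029, without P3 replicate 2, and 0.0894. In P56 vs P21 it ran between -0.0797, without P56 replicate 4, and 0.256. In P21 vs P10 it ran between -0.66 and -0.39, and in P10 vs P3 between 0.10 and 0.32, below and above 0 throughout. Rps2 lost its call in P21 vs E14.5 without E14.5 replicate 1 and with only the 2 ages. Leaving the 50 highest other genes out of the totals raised the shares to 0.734%, 0.745%, 0.819%, 0.547% and 0.568% from E14.5 to P56. Read numbers limit the precision for genes such as Rps27, which had 3 to 63 reads per library.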
